A study of Mus musculus with 12 samples.

Results

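The genes described here are 7 that encode secreted or membrane-bound growth factors for neurons and glia, namely the neuregulins Nrg4 and Nrg1, the neurotrophins Ntf3 and Bdnf, and the GDNF family ligands Gdnf, Nrtn and Artn. They were picked by gene symbol and not by a cut on their measured values, though with earlier results of these data known. They make up 7 of the 47729 genes in the deposited tables. Of the 7, 6 passed the filter on low counts and were among the 19154 genes tested, and Artn did not. Gene expression was measured by RNA sequencing of interscapular brown adipose tissue (BAT) and of inguinal, epididymal and retroperitoneal white adipose tissue (IWAT, EWAT and RWAT), with 3 libraries per depot. All mice were male, wild type and of strain C57BL/6J, were aged 6 to 10 weeks and ate a standard rodent diet low in fat. Surgical denervation is given for all 12 libraries, so depot is the factor compared. Innervated fat was not analysed here. Nothing in the labels says that each library of a depot is another animal. All p-values below therefore speak to the spread among these libraries, part of which may be technical.

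Neuregulins bind ErbB receptor tyrosine kinases. Nrg1 signals through Erbb3 and Erbb4 and is known for its role in Schwann cells, and Nrg4, a ligand of Erbb4, is known in mice as a factor secreted by brown and other adipocytes that promotes neurite growth. Neurotrophins bind Trk receptors and the shared receptor p75, and the GDNF family ligands bind a GFRα co-receptor together with the receptor Ret. Sympathetic axons in fat depend on such target-derived factors during development.

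Nrg4 and Ntf3 had the largest shares of their variance between depots among the 6 tested genes, and their promoters are shown for that reason. Each window runs from 250 bases before to 50 bases after a RefSeq transcription start (GRCm38.p6) and is written 5′ to 3′ on the gene's strand. Capitals mark matches, on either strand, to 4 short motifs that were searched: AGGTCA (a nuclear receptor half-site), CACGTG (an E-box), TTGCNNAA (C/EBP) and the palindromic motif of EBF factors.
Nrg4 (chr9:55283576-55283875, minus strand): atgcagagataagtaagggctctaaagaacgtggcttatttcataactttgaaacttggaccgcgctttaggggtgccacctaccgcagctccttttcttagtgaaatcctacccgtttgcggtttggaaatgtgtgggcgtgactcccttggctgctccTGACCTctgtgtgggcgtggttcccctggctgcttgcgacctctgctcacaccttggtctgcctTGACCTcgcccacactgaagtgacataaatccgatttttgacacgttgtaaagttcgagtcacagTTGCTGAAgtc
Ntf3 (chr6:126166695-126166994, minus strand): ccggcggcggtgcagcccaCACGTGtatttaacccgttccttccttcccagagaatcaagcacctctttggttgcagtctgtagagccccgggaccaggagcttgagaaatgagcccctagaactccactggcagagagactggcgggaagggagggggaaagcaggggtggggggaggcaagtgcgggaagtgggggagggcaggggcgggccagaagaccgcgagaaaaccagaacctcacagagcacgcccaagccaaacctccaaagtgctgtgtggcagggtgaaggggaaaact
The Nrg4 window held 2 matches to AGGTCA, both written as TGACCT on this strand, and 1 to TTGCNNAA. Of 32851 promoter windows of the same length, 1.81% held at least 2 matches to AGGTCA and 10.8% a match to TTGCNNAA. This Ntf3 window held 1 match to CACGTG, which 7.15% of windows hold, and a second listed Ntf3 start (chr6:126164911-126165210) held no match to the 4 motifs. No match to the EBF motif, found in 0.904% of windows, was present in any of the 3. A match to so short a motif is a description of the letters and not a binding site.

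Libraries held 15699912 to 25633413 estimated counts. Levels are given as CPM, counts relative to library size after TMM scaling, except where TPM, the authors' value per transcript length, is named. A total of 3 counts, the one-sided 95% limit that a count of 0 allows, is called the floor and amounted to 0.128 to 0.236 CPM per library, for counting error only. The biological coefficient of variation was 0.448. The depots were not uniform inside. In BAT replicates 1 to 3 the 12 adipocyte markers summed to 25390, 25490 and 10770 CPM, and they summed to 31550, 23020 and 7887 in IWAT, 7653, 7903 and 5200 in EWAT and 24670, 4607 and 2875 in RWAT. The 13 brown adipocyte markers, which define BAT, summed to 5854, 344.3 and 1408 CPM in BAT and to 88.73 to 598.3 in IWAT, 11.82 to 12.85 in EWAT and 13.15 to 179.7 in RWAT, so BAT replicate 2 lay below IWAT replicates 1 and 2. The 16 skeletal muscle markers summed to 22850, 16150 and 2683 CPM in BAT, 31.79 to 43.81 in IWAT, 60.1 to 72.84 in EWAT, and 66.04, 106.5 and 18810 in RWAT replicates 1 to 3. The 8 mesothelial markers summed to 113.1 to 239.5 CPM in EWAT, 56.76 to 259.8 in RWAT and at most 6.281 in BAT and IWAT. The 6 epithelial markers summed to 37.56 to 122 CPM in EWAT, 3.692 to 51.49 in RWAT and at most 2.089 in BAT and IWAT. The part of these cells in the depot differences below was not tested. The 10 sympathetic neuron markers summed to 7.715 to 16.44 CPM in BAT, 10.11 to 18.59 in IWAT, 27.11 to 72.84 in EWAT and 16.73 to 34.26 in RWAT, with 1 to 5 of the 10 under the floor. Over all libraries Tubb3, a neuronal tubulin, had the most counts of these, 1955, and the enzymes of noradrenaline synthesis had the fewest, 7 for Th and 4 for Dbh. The EWAT sums rested on few genes. In EWAT replicate 1, Npy held 33.4 of the 49.81 CPM. In EWAT replicate 2, Tubb3 held 39.5 and Uchl1 24.2 of the 72.84 CPM. Th had no counts in EWAT.

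No member passed the threshold of an adjusted p under 0.05 over all 19154 genes in edgeR's quasi-likelihood test, in any of the 4 comparisons that cover the depots or in a single pair of depots. The background of calls was low as well. It was 0.512% of genes for any depot difference, 0.0992% for BAT against the white depots combined, 0.141% for IWAT against EWAT and RWAT combined, and 0.0418% for EWAT against RWAT. In the other pairs it was 0.783% for BAT and EWAT, 0.0104% for BAT and IWAT, 0.0574% for BAT and RWAT, 0.345% for IWAT and EWAT and 0.0% for IWAT and RWAT. An unadjusted p under 0.05 for any depot difference was found for Nrg4 and Ntf3, where 17.1% of all genes had one. For BAT against white it was found for Nrg4, Ntf3 and Nrtn, all higher in BAT, where 18.1% of all genes had one in either direction. The median log2 fold change of the 6 tested members in BAT against white was 1.46, against −0.07 for all genes tested. DESeq2 on the same counts passed Nrg4 (adjusted p = 0.0188) and Ntf3 (adjusted p = 0.0289) for any depot difference, where it called 2151 of 19097 genes. Over 19 alternatives the adjusted p reached 0.479 for Nrg4 and 0.44 for Ntf3.

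Nrg4 (ENSMUSG00000032311, chromosome 9, 55220222 to 55326844 on the minus strand of GRCm38, with 13 transcripts in the files) was the only abundant member. By mean TPM it ranked 1885 of 19154 tested genes, among the top 9.84%, while the next member, Nrg1, ranked 14685. In BAT replicates 1 to 3 it held 175, 179 and 67.7 CPM, against 134, 120 and 33.4 CPM in IWAT, 15.2, 13.0 and 12.2 CPM in EWAT and 128, 13.6 and 13.9 CPM in RWAT. All 3 EWAT libraries were low and close together, BAT and IWAT each had 1 library well under the other 2, and in RWAT 1 library was high and the other 2 were at the EWAT level. The means were 141 ± 63.1 CPM in BAT, 95.8 ± 54.5 in IWAT, 13.5 ± 1.55 in EWAT and 51.8 ± 66.0 in RWAT (SD, n = 3 each). In TPM the means were 100 ± 41.6 in BAT, 82.6 ± 36.7 in IWAT, 13.7 ± 0.43 in EWAT and 49.6 ± 60.6 in RWAT (SD, n = 3 each).

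In order of mean level Nrg4 ran BAT, IWAT, RWAT, EWAT, and neighbours in that order overlapped. EWAT lay below all BAT and all IWAT libraries. Every BAT library was above every EWAT library, which held for 19.1% of all genes, and every IWAT library above every EWAT library, which held for 11.8%. Nrg4 and Ntf3 were the members with EWAT below all BAT and all IWAT libraries, as were 8.39% of all genes. The log2 fold change was 3.38 in BAT over EWAT (SE 0.90, adjusted p = 0.0703 by edgeR, where 0.783% of genes passed) and 2.83 in IWAT over EWAT (SE 0.88, adjusted p = 0.18, where 0.345% passed). For BAT over the white depots combined it was 1.79 (SE 0.62, adjusted p = 0.195). RWAT replicate 1 weighed on these values. Without it, edgeR's adjusted p was 0.0418 for any depot difference, 0.0461 for BAT against white, 0.0354 for IWAT against EWAT and RWAT together and 0.0332 for BAT against EWAT. That fit also called more genes in general. Of 20689 genes, it called 325 for any depot difference, 263 for BAT against white and 139 for IWAT against EWAT and RWAT together. With all libraries, 98, 19 and 27 of 19154 genes were called. Over 19 alternatives the adjusted p reached 0.885 for BAT against white and 1.0 for IWAT against EWAT and RWAT together. BAT against EWAT also passed without BAT replicate 3 (adjusted p = 0.0488) and with DESeq2 (adjusted p = 0.00112), in a range over 19 alternatives that reached 0.217. IWAT against EWAT passed with DESeq2 (adjusted p = 0.0157), in a range that reached 0.475. DESeq2 called far more genes, 2151 of 19097 for any depot difference where edgeR called 98 of 19154. The shares of all genes that passed under these alternatives in BAT against EWAT and IWAT against EWAT are not given here.

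**Figure D1:**
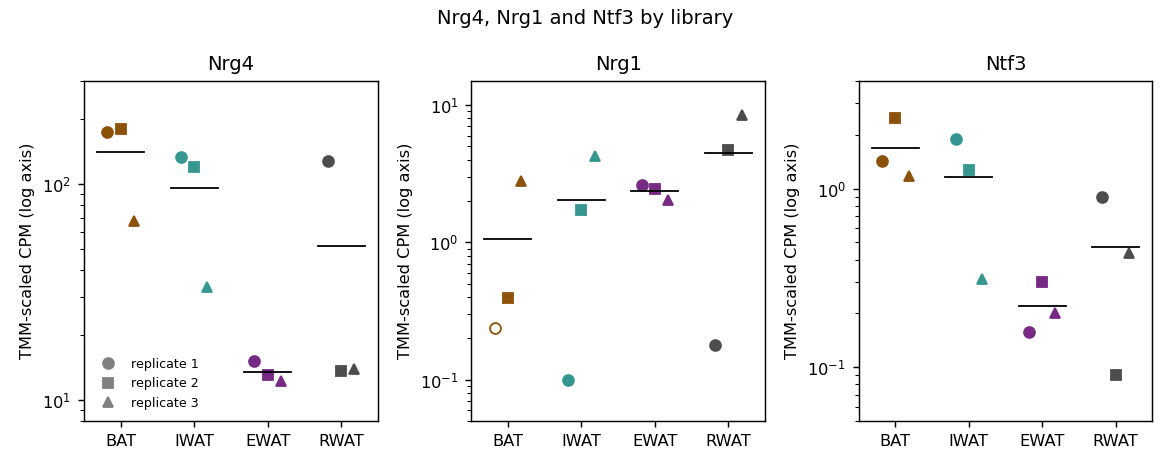
Level of Nrg4, Nrg1 and Ntf3 in each library, as TMM-scaled CPM on a log axis whose range differs between panels; symbols are replicates, horizontal lines the mean of a depot (n = 3), and the open circle, Nrg1 in BAT replicate 1, is a count of 0 drawn at the floor. Nrg4 and Ntf3 were lowest in EWAT and in some RWAT libraries, and Nrg1 spanned 0 to 8.48 CPM with every depot but EWAT spread widely.

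The libraries high in Nrg4 were those high in adipocyte genes. The 6 highest for Nrg4, in order BAT replicates 2 and 1, IWAT replicate 1, RWAT replicate 1, IWAT replicate 2 and BAT replicate 3, were also the 6 highest in the sum of the 12 adipocyte markers (Adipoq, Plin1, Fabp4 and others) and in the sum of 10 lipogenesis genes. None of these markers was under the floor in any library. In whole tissue, fewer cells of a type and less RNA per cell cannot be told apart. Nrg4 was therefore also expressed per 1000 CPM of the 12 markers in the same library, a ratio chosen after the values above were seen. The ratio was 6.88, 7.03 and 6.29 in BAT, 4.25, 5.21 and 4.24 in IWAT, 1.99, 1.64 and 2.35 in EWAT and 5.20, 2.94 and 4.82 in RWAT. On this scale all 3 BAT libraries were above all 9 white ones, and all 3 EWAT libraries below all others. Of all genes tested, 0.0679% had BAT above all white libraries and 0.433% had EWAT below all others when divided in the same way. The marker sum ran from 2875 to 31550 CPM, and Nrg4 was seen to follow it before the ratio was chosen. These shares, and those for other denominators below, are therefore no measure of how rare the pattern of Nrg4 is. The means were 6.73 ± 0.391 in BAT, 4.57 ± 0.557 in IWAT, 1.99 ± 0.355 in EWAT and 4.32 ± 1.21 in RWAT (SD, n = 3 each).

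The ratio depended on its denominator. With Adipoq alone, the adiponectin gene, BAT stayed above all white libraries (83.2 to 112 in BAT, and at most 81.8 in RWAT), as did 0.11% of all genes, and EWAT below all others, as did 0.407%. With Plin1 alone, a lipid droplet coat gene, BAT at 93.7 to 125 overlapped RWAT, which reached 95.6, where 0.0835% of all genes had BAT above all white libraries. EWAT stayed below all others, as did 0.397% of all genes. With 10 lipogenesis genes neither held, and the ratio averaged 1.85 ± 0.635 in BAT, 2.26 ± 0.955 in IWAT, 2.30 ± 0.909 in EWAT and 3.07 ± 1.49 in RWAT (SD, n = 3 each). The part that the number of adipocytes had in the depot differences of Nrg4 was not tested. Nrg4 also shares 368 exonic bases with Fbxo22 on the opposite strand, a gene with 514.57 to 964.12 counts per library. Whether reads were counted by strand is not given in the sources used here, so reads in that stretch could belong to either gene. The posterior standard deviation that RSEM gave for the Nrg4 count was 3.31 to 9.03 counts.

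**Figure D2:**
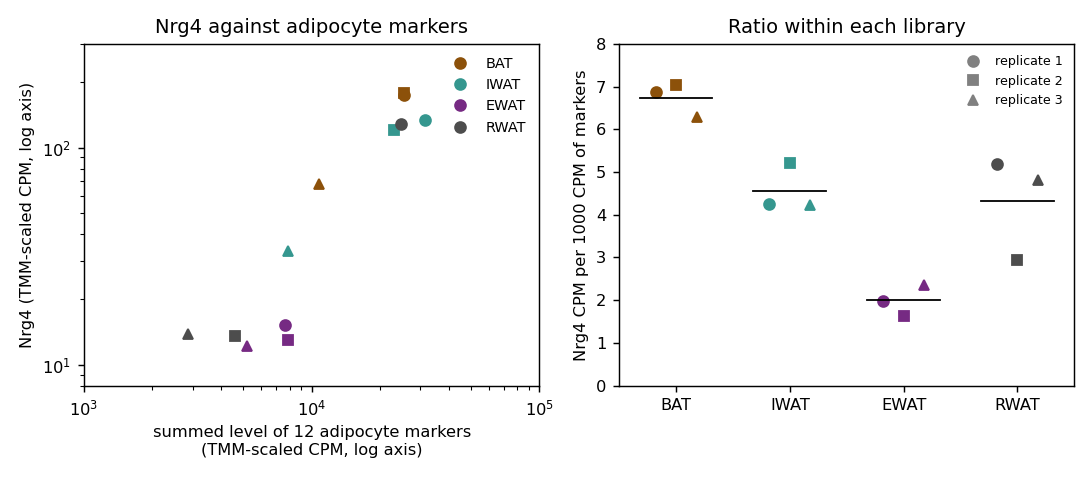
Left, Nrg4 against the summed level of 12 adipocyte markers in the 12 libraries, both as TMM-scaled CPM on log axes; right, Nrg4 CPM per 1000 CPM of those markers, with lines for the mean of a depot (n = 3). Depots are coloured and symbols are replicates. The 3 BAT libraries sit at 6.29 to 7.03 per 1000 CPM, above all white libraries, and the 3 EWAT libraries at 1.64 to 2.35, below all others.

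Nrg1 (ENSMUSG00000062991, chromosome 8, 31814551 to 32884029 on the minus strand, with 18 transcripts in the files), a neuregulin of axons that supports Schwann cells, was the member with the widest spread inside depots. In BAT replicates 1 to 3 it held 0, 0.393 and 2.79 CPM, against 0.0996, 1.72 and 4.28 CPM in IWAT, 2.64, 2.44 and 2.05 CPM in EWAT and 0.179, 4.68 and 8.48 CPM in RWAT. EWAT was the 1 depot where the 3 libraries lay close together, and in BAT, IWAT and RWAT the libraries ran from near the floor to several CPM, so all 4 depots overlapped. Counts were 0, 6 and 57 in BAT and 3, 103.81 and 156 in RWAT, and the two-sided 95% Poisson intervals of BAT replicate 1 (0 to 3.69 counts) and BAT replicate 3 (43.2 to 73.9 counts) did not overlap. The means were 1.06 ± 1.51 CPM in BAT, 2.03 ± 2.11 in IWAT, 2.38 ± 0.3 in EWAT and 4.45 ± 4.16 in RWAT (SD, n = 3 each).

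In BAT over the white depots combined, the log2 fold change of Nrg1 was −1.34 (SE 1.23, adjusted p = 0.52 by edgeR). It was −3.63 without BAT replicate 3 and −0.78 without BAT replicate 1, the ends of the range with 1 library left out. On the log2 scale 20.9% of its variance lay between depots, against a median of 38.2% over all tested genes. Its within-depot SD was 2.11, against a median of 0.49. The 4 libraries lowest in Nrg1 were BAT replicates 1 and 2, IWAT replicate 1 and RWAT replicate 1. They were also the 4 lowest in the sums of 12 macrophage markers and of 10 stromal progenitor markers. The same 4 were the 4 highest in the sums of adipocyte markers and of lipogenesis genes. At the other end, the 4 libraries highest in Nrg1 were the 4 highest in the stromal sum. The macrophage sum was highest in the 3 EWAT libraries, which were not among those 4. The stromal sum was 4739, 7277 and 25720 CPM in BAT, 6581, 13410 and 23150 in IWAT, 13750, 9168 and 11020 in EWAT and 5800, 20240 and 34270 in RWAT. The macrophage sum was 1176 to 5918 CPM in BAT, 1942 to 6309 in IWAT, 6507 to 8753 in EWAT and 2099 to 5887 in RWAT. No marker of the macrophage and stromal lists was under the floor in any library. The part of macrophages, stromal cells and adipocytes in the spread of Nrg1 was not tested. The 12 markers of Schwann cells, which respond to Nrg1, summed to 51.68 to 193.1 CPM in BAT, 73.34 to 90.28 in IWAT, 44.66 to 51.55 in EWAT and 34.68 to 72.43 in RWAT, with 1 to 5 of the 12 under the floor. BAT replicate 1, highest in this sum, had no count of Nrg1.

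The receptors of the neuregulins differed in how they followed the ligands. Erbb4, the receptor that binds Nrg4, held 9.29, 7.72 and 5.14 CPM in BAT, 5.98, 6.98 and 0.418 CPM in IWAT, 0.475, 0.471 and 0 CPM in EWAT and 0.893, 0 and 0.0544 CPM in RWAT. All BAT libraries and IWAT replicates 1 and 2 were high, and no other library exceeded 0.893 CPM. The log2 fold change in BAT over white was 3.27 (SE 0.90, adjusted p = 0.139), and any depot difference had an adjusted p of 0.167 by edgeR and 0.0131 by DESeq2, in a range over 19 alternatives that reached 0.392. Egfr, a receptor of other EGF-like ligands and a partner of Erbb2, was the most abundant of the ErbB receptors and was even across depots, at 185 ± 14.0 CPM in BAT, 206 ± 64.2 in IWAT, 152 ± 25.9 in EWAT and 170 ± 29.3 in RWAT (SD, n = 3 each). Erbb2, the co-receptor without a ligand, averaged 8.11 ± 1.1 CPM in BAT, 8.74 ± 2.66 in IWAT, 13.6 ± 6.5 in EWAT and 12.3 ± 2.69 in RWAT. Erbb3, the Nrg1 receptor of Schwann cells, averaged 5.99 ± 1.59 CPM in BAT, 5.71 ± 0.693 in IWAT, 9.51 ± 8.47 in EWAT and 7.81 ± 4.53 in RWAT. The adjusted p for any depot difference was 0.596 for Egfr, 0.442 for Erbb2 and 0.741 for Erbb3 by edgeR, and none of the 4 ErbB receptors passed.

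Ntf3 (ENSMUSG00000049107, chromosome 6, 126101412 to 126166910 on the minus strand, with 3 transcripts in the files) encodes neurotrophin 3, a ligand of Ntrk3 that supports sensory and sympathetic neurons. It was detected at low levels, with 18, 38 and 24 counts in BAT replicates 1 to 3, 38, 23 and 6 in IWAT, 3, 7 and 4 in EWAT and 15, 2 and 8 in RWAT. Scaled, these were 1.42, 2.49 and 1.17 CPM in BAT, 1.89, 1.27 and 0.313 CPM in IWAT, 0.158, 0.3 and 0.2 CPM in EWAT and 0.893, 0.0901 and 0.435 CPM in RWAT. All BAT libraries were above all EWAT and all RWAT libraries, and all IWAT libraries were above all EWAT ones, by a narrow gap for IWAT replicate 3. BAT above RWAT without overlap held for 7.42% of all genes in CPM. In TPM it was lost for Ntf3, with BAT replicate 1 at 0.67 and RWAT replicate 1 at 0.9. The means were 1.69 ± 0.701 CPM in BAT, 1.16 ± 0.794 in IWAT, 0.219 ± 0.0729 in EWAT and 0.473 ± 0.403 in RWAT (SD, n = 3 each).

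For BAT against the white depots combined, Ntf3 had the smallest adjusted p of the members, 0.175 by edgeR, at a log2 fold change of 1.76 (SE 0.57). It was 2.89 in BAT over EWAT (SE 0.81, adjusted p = 0.0753), 2.36 in IWAT over EWAT (SE 0.81, adjusted p = 0.214) and 1.85 in BAT over RWAT (SE 0.77, adjusted p = 0.327, where 0.0574% of genes passed), the last at 1.34 without RWAT replicate 2 and 2.69 without RWAT replicate 1. BAT against EWAT passed with DESeq2 (adjusted p = 0.00778), in a range over 19 alternatives that reached 0.214. The share of all genes that passed with DESeq2 in this pair is not given here. The 6 libraries highest in Ntf3 were the same 6 as for Nrg4 and for the adipocyte marker sum, in another order, and the part of adipocyte content in this was not tested.

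Bdnf (ENSMUSG00000048482, chromosome 2, 109674700 to 109727007 on the plus strand, with 11 transcripts in the files), the neurotrophin of Ntrk2, was close to the limit of detection. It had 5, 21 and 5 counts in BAT, 7, 2 and 5 in IWAT, 1, 10 and 0 in EWAT and 19, 10.98 and 5 in RWAT. BAT replicate 2 and RWAT replicate 1 were highest, and all depots overlapped. The 95% Poisson interval, which covers counting error only, was 13.0 to 32.1 counts for the highest library and 0 to 3.69 for the lowest. The means were 0.670 ± 0.611 CPM in BAT, 0.240 ± 0.12 in IWAT, 0.160 ± 0.233 in EWAT and 0.632 ± 0.445 in RWAT (SD, n = 3 each). The log2 fold change in BAT over white was 1.16 (SE 0.78, adjusted p = 0.406 by edgeR). It was 0.0945 without BAT replicate 2 and 1.96 without EWAT replicate 2, the ends of the range with 1 library left out. Bdnf shares 896 exonic bases with the antisense gene Gm45346, so the doubt about strand given for Nrg4 holds here too.

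Both Trk receptors of these ligands had higher mean levels than the ligands in every depot, compared per transcript length. Ntrk3, which binds neurotrophin 3, averaged 19.1 TPM in BAT, 8.94 in IWAT, 1.10 in EWAT and 2.43 in RWAT, where Ntf3 averaged 1.28 TPM in BAT, 0.950 in IWAT, 0.260 in EWAT and 0.517 in RWAT. In CPM Ntrk3 held 161, 23.4 and 42.5 in BAT, 60.1, 32.1 and 3.55 in IWAT, 3.48, 0.942 and 1.00 in EWAT and 19.6, 0.766 and 1.90 in RWAT. All 3 BAT libraries were above all EWAT and RWAT libraries, as BAT was above EWAT in 19.1% and above RWAT in 7.42% of all genes. IWAT replicate 3 was only just above the highest EWAT library. The libraries highest in Ntrk3, all BAT ones, IWAT replicates 1 and 2 and RWAT replicate 1, were also the highest in the adipocyte marker sum. BAT replicate 1, at 161 CPM, was the library highest in muscle and brown adipocyte markers. The part of cell content in this was not tested. The log2 fold change of Ntrk3 in BAT over white was 3.33 (SE 0.90, adjusted p = 0.136 by edgeR). Any depot difference had an adjusted p of 0.185 by edgeR, 0.00408 by DESeq2 and at most 0.435 over 19 alternatives. Ntrk2, which binds BDNF, averaged 21.3 TPM in BAT, 24.7 in IWAT, 5.94 in EWAT and 14.1 in RWAT, where Bdnf averaged 0.173 TPM in BAT, 0.0733 in IWAT, 0.06 in EWAT and 0.243 in RWAT. In CPM Ntrk2 averaged 168 ± 78.7 CPM in BAT, 162 ± 102 in IWAT, 28.6 ± 16.7 in EWAT and 72.2 ± 84.8 in RWAT (SD, n = 3 each; adjusted p = 0.307 for any depot difference by edgeR). Ngfr, which encodes p75, averaged 2.61 ± 1.6 CPM in BAT, 6.62 ± 2.79 in IWAT, 1.43 ± 0.612 in EWAT and 4.0 ± 3.76 in RWAT (adjusted p = 0.296 by edgeR). Sort1, the sorting receptor sortilin, had the highest mean of the 5 neurotrophin receptors, at 433 ± 181 CPM in BAT, 425 ± 250 in IWAT, 273 ± 65.1 in EWAT and 230 ± 232 in RWAT (adjusted p = 0.686 by edgeR). None of the 5 passed in the 4 comparisons.

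**Figure D3:**
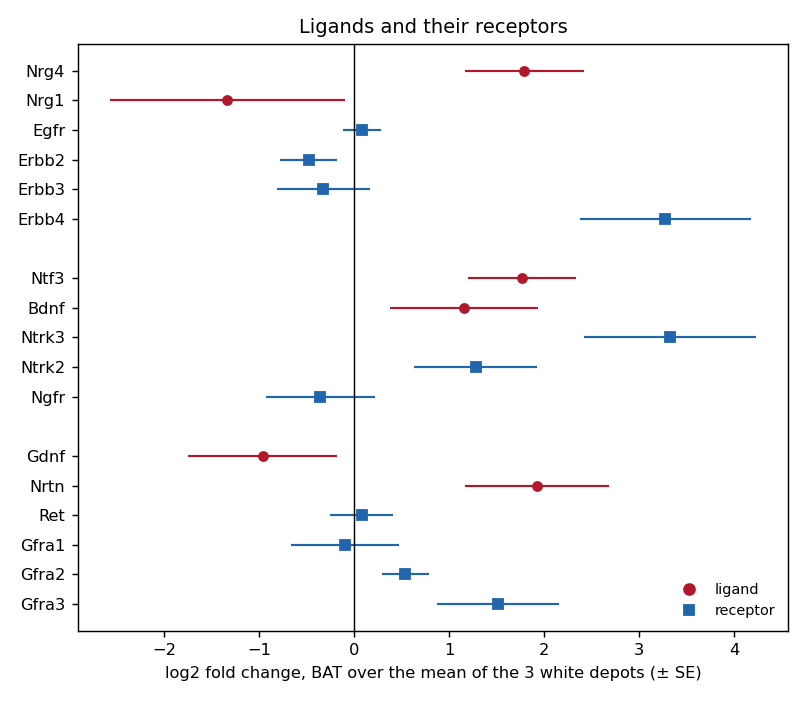
Fitted log2 fold change in BAT over the 3 white depots combined for the 6 tested ligands (red circles) and 11 of their receptors (blue squares), grouped as ErbB, neurotrophin and GDNF systems; bars are ± 1 SE from 1 fit of all 12 libraries. Ntrk3 at 3.33 and Erbb4 at 3.27 lie farthest from 0, the ligands run from −1.34 for Nrg1 to 1.93 for Nrtn, and none passed an adjusted p under 0.05 in this comparison.

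The GDNF family ligands were all low. Nrtn (ENSMUSG00000039481, chromosome 17, 56751325 to 56757530 on the minus strand, with 1 transcript in the files) encodes neurturin, which binds GFRα2 and supports parasympathetic and enteric neurons. It had 34, 9 and 13 counts in BAT, 7, 17 and 2 in IWAT, 7, 9 and 5 in EWAT and 3, 0 and 10 in RWAT. After TMM scaling, all 3 BAT libraries were above all EWAT and all RWAT libraries, by a narrow gap for RWAT replicate 3. The values were 2.68, 0.589 and 0.636 CPM in BAT, 0.369, 0.385 and 0.25 CPM in EWAT and 0.179, 0 and 0.544 CPM in RWAT. In TPM the separation from RWAT was lost, with BAT replicates 2 and 3 at 0.66 and 0.84 and RWAT replicate 3 at 0.88. In CPM, BAT lay above EWAT without overlap in 19.1% of all genes, and above RWAT in 7.42%. IWAT, at 0.349, 0.942 and 0.104 CPM, overlapped each of the other depots. The log2 fold change was 1.93 in BAT over white (SE 0.76, adjusted p = 0.237 by edgeR) and 2.41 in BAT over RWAT (SE 1.06, adjusted p = 0.334). Without BAT replicate 1 these were 0.87 and 1.35, the lowest values with 1 library left out, and the highest, without RWAT replicate 3, were 2.41 for BAT over white and 3.86 for BAT over RWAT. The high library, BAT replicate 1, was also the one highest in muscle markers at 22850 CPM and in Schwann cell markers at 193.1 CPM, and their part in the result was not tested.

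Gdnf (ENSMUSG00000022144, chromosome 15, 7810846 to 7837575 on the plus strand, with 1 transcript in the files), the ligand of GFRα1 and Ret, had 2, 9 and 10 counts in BAT, 27, 19 and 1 in IWAT, 8, 34 and 7 in EWAT and 23, 13 and 15 in RWAT. The libraries of each depot overlapped those of the others, and IWAT alone ran from under the floor to 27 counts. The means were 0.412 ± 0.226 CPM in BAT, 0.817 ± 0.679 in IWAT, 0.744 ± 0.621 in EWAT and 0.924 ± 0.403 in RWAT (SD, n = 3 each), and the log2 fold change in BAT over white was −0.97 (SE 0.79, adjusted p = 0.471 by edgeR). Between depots lay 14.4% of its variance, the lowest share of the 6 tested members.

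Artn (ENSMUSG00000028539, chromosome 4, 117926162 to 117929763 on the minus strand, with 4 transcripts in the files) encodes artemin, the GFRα3 ligand that guides sympathetic axons. It had 40 counts in all, 1, 1 and 0 in BAT, 1, 5 and 1 in IWAT, 4, 10 and 5 in EWAT and 0, 4 and 8 in RWAT. All 3 BAT libraries and 6 of the 12 libraries overall were under the floor, and all 3 EWAT libraries were above it and above all BAT ones. BAT lay below EWAT without overlap in 17.8% of the genes tested. In a fit of edgeR without the filter on low counts, the log2 fold change of Artn in BAT over EWAT was −2.59 (adjusted p = 0.276), and any depot difference had an adjusted p of 0.659.

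**Figure D4:**
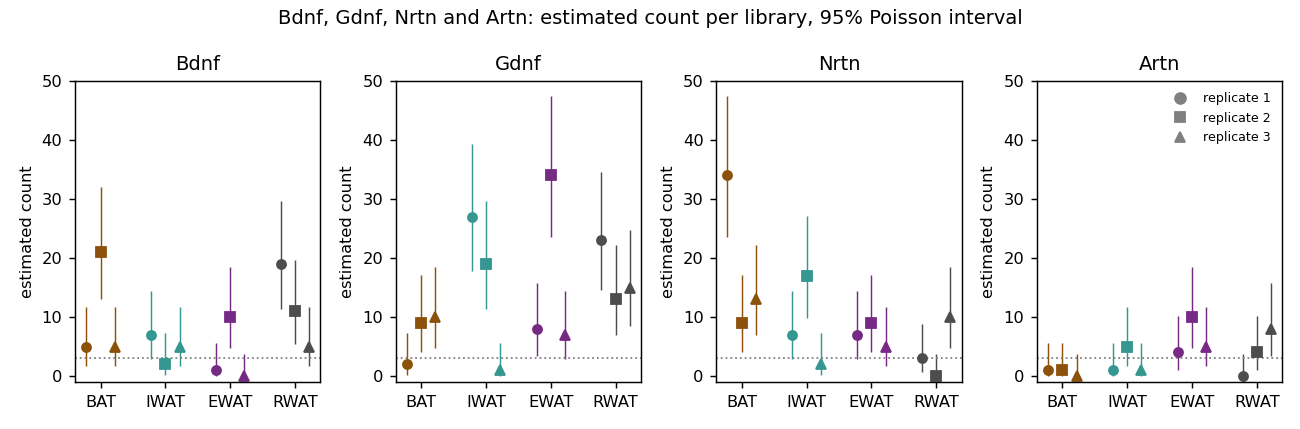
Estimated counts of Bdnf, Gdnf, Nrtn and Artn in each library, on a linear axis from 0 to 50, with 95% Poisson intervals that cover counting error only; symbols are replicates and the dotted line is the floor of 3 counts. No value exceeds 34 counts, and Artn stays at or under 10 counts.

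Among the receptors of the GDNF family, Gfra2 passed the test. Gfra2, the co-receptor that binds neurturin, held 8.34, 8.05 and 11.7 CPM in BAT, 11, 11.5 and 13.3 CPM in IWAT, 2.8, 2.4 and 1.3 CPM in EWAT and 12.6, 7.34 and 11.3 CPM in RWAT. All EWAT libraries were below all of the others, as in 2.58% of all genes, and the ranges of BAT, IWAT and RWAT overlapped. It differed between depots with an adjusted p of 0.0401 by edgeR, and was higher in BAT than in EWAT (log2 fold change 2.11, SE 0.33, adjusted p = 0.033) and in IWAT than in EWAT (2.46, SE 0.33, adjusted p = 0.0181). In EWAT over RWAT it was −2.26 (SE 0.33, adjusted p = 0.0652), which did not pass. Over 19 alternatives the call for any depot difference held in 9. It was lost with limma-voom (adjusted p = 0.0512), with library sizes without TMM (0.0648), and in 8 of the 12 fits that left out 1 library, at adjusted p of 0.103, 0.0756 and 0.0723 without BAT replicates 1 to 3, 0.107, 0.106 and 0.0696 without IWAT replicates 1 to 3, and 0.199 and 0.0854 without EWAT replicates 2 and 3. The call in BAT over EWAT held in 11 of 19 alternatives, and was lost with limma-voom (adjusted p = 0.0573), without TMM (0.0591) and at adjusted p of 0.114, 0.0773, 0.06, 0.0691, 0.129 and 0.079 without BAT replicates 1 and 2, IWAT replicates 1 and 2, and EWAT replicates 2 and 3. The call in IWAT over EWAT held in 15 of 19 and was lost without TMM (adjusted p = 0.0569) and at adjusted p of 0.07, 0.0859 and 0.0992 without IWAT replicates 1 and 2 and EWAT replicate 2. In the fits with 1 library left out that lost these calls, the log2 fold changes stayed between 1.85 and 2.54.

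Ret, the shared signalling receptor, averaged 10.0 ± 4.96 CPM in BAT, 14.1 ± 0.917 in IWAT, 5.91 ± 2.08 in EWAT and 10.4 ± 4.06 in RWAT (SD, n = 3 each; adjusted p = 0.341 for any depot difference by edgeR). Gfra1, the co-receptor of GDNF, averaged 3.16 ± 1.07 CPM in BAT, 4.67 ± 0.272 in IWAT, 1.12 ± 1.14 in EWAT and 7.36 ± 4.59 in RWAT (adjusted p = 0.211 by edgeR). Gfra3, the co-receptor of artemin, averaged 1.03 ± 0.848 CPM in BAT, 1.22 ± 0.709 in IWAT, 0.122 ± 0.0829 in EWAT and 0.281 ± 0.205 in RWAT (adjusted p = 0.188 by edgeR). The means of Ret, Gfra1, Gfra2 and Gfra3 were lowest in EWAT. That of Gfra4, the co-receptor of persephin, was lowest in RWAT, at 3.59 ± 0.393 CPM in BAT, 3.5 ± 1.09 in IWAT, 2.78 ± 0.432 in EWAT and 1.97 ± 0.242 in RWAT (adjusted p = 0.314 by edgeR). Ncam1, an alternative GDNF receptor, ran the other way, with 3.86, 4.71 and 10.2 CPM in BAT, 2.24, 7.64 and 17.5 CPM in IWAT, 75.4, 33.7 and 29.7 CPM in EWAT and 2.38, 39.9 and 82.5 CPM in RWAT. It was named after its values were seen and did not pass (adjusted p = 0.267 for any depot difference by edgeR). Of the 6 GDNF family receptors, 1 was called for any depot difference and 0 in each of the 3 comparisons of depots with a direction.

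**Figure D5:**
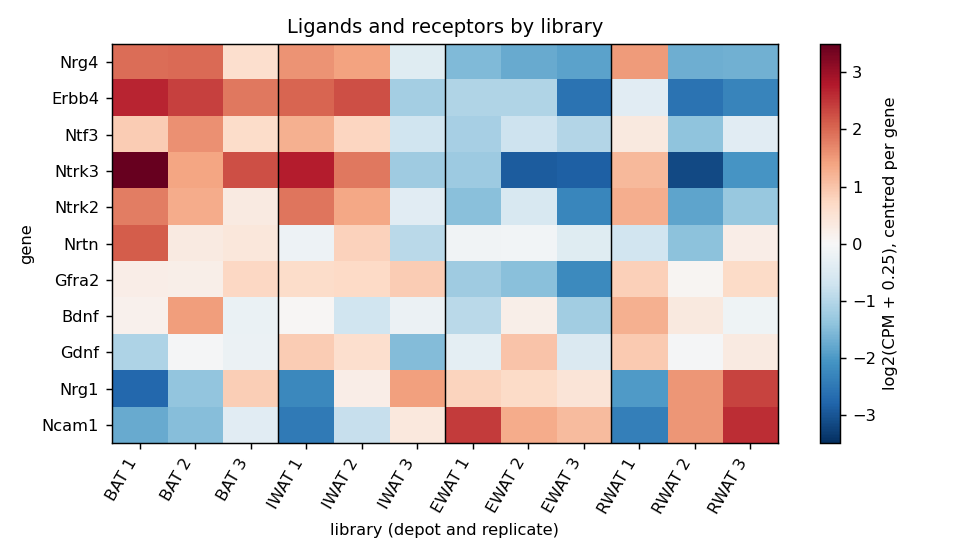
Levels of 6 ligands and 5 receptors in the 12 libraries, as log2(CPM + 0.25) minus the mean of the gene over the 12 libraries, where red is above and blue below that mean; vertical lines part the depots. Nrg4, Erbb4, Ntf3, Ntrk3 and Ntrk2 are high in BAT replicates 1 and 2, IWAT replicates 1 and 2 and, except Erbb4, RWAT replicate 1, Gfra2 is low in the 3 EWAT libraries alone, and Nrg1 and Ncam1 are low in BAT replicates 1 and 2, IWAT replicate 1 and RWAT replicate 1.

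The rest of the signalling system was taken from lists of related ligands and of processing enzymes. Of 14 related ligands (Nrg2, Btc, Hbegf, Lif and others), 11 were tested and 0 passed by edgeR. Among the 11, 2 had an unadjusted p under 0.05 for any depot difference, where 17.1% of all genes had one. The median log2 fold change of the 11 in BAT over white was 0.02. Ptn, the heparin-binding growth factor pleiotrophin, had the highest mean of these and averaged 8.59 ± 12.6 CPM in BAT, 6.75 ± 6.81 in IWAT, 6.46 ± 3.5 in EWAT and 7.36 ± 6.04 in RWAT (SD, n = 3 each; adjusted p = 0.989 for any depot difference by edgeR). Of 9 enzymes that process or shed these precursors, all were tested and 0 passed in the 4 comparisons. Adam10, a membrane protease, had the highest mean of these and averaged 84.1 ± 34.9 CPM in BAT, 121 ± 27.6 in IWAT, 186 ± 26.7 in EWAT and 150 ± 61.4 in RWAT (adjusted p = 0.296 by edgeR).

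Pcsk6, a proprotein convertase, was named after its values were seen because it was called in a single pair of depots. It held 144, 125 and 79.9 CPM in BAT, 72.8, 87.2 and 20.1 CPM in IWAT, 8.97, 7.67 and 4.3 CPM in EWAT and 53.4, 12.1 and 38.7 CPM in RWAT. All EWAT libraries were below all others, as in 2.58% of all genes. The log2 fold change in BAT over EWAT was 4.06 (SE 0.67, adjusted p = 0.0361 by edgeR). The call held in 12 of 19 alternatives and was lost with limma-voom (adjusted p = 0.0731) and at adjusted p of 0.137, 0.101, 0.0667, 0.0691, 0.149 and 0.105 without BAT replicates 1 and 2, IWAT replicates 1 and 2, and EWAT replicates 2 and 3.

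The genes whose pattern was most like that of a member were found by the root mean square difference of centred log2 CPM over the 12 libraries, among named genes with a mean of at least 1 CPM. For Nrg4 they were Tmem120b, Dmtn and Echdc1, at differences of 0.28, 0.29 and 0.30, against a median of 1.63 over the 13556 genes compared. For Ntf3 they were Dbp, Sugct and Slc5a6, at 0.29, 0.36 and 0.37, against a median of 1.25. For Nrg1 they were Mex3a, Troap and Hist1h2an, at 0.56, 0.60 and 0.61, against a median of 1.97. The nearest were Usp2 for Nrtn at 0.54, Zfp459 for Bdnf at 0.63 and Wasf1 for Gdnf at 0.66, and these members have few counts, so the difference also holds counting error. These distances describe the 12 libraries, which share the differences in adipocyte content given above.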

How the data were processed

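Libraries were made after removal of ribosomal RNA and read from 1 end over 75 bases, per the labels' protocols. The submitters' processing notes name RSEM 1.3.0, Trimmomatic 0.36, DESeq2 1.10.1 and build GRCm38.p4; annotation and strand setting were not given there. The deposited tables hold RSEM estimated counts (expected counts, not normalised), the authors' TPM, and gene lengths and a posterior standard deviation of the counts, as named per the file headers. Estimated counts were rounded, filtered with filterByExpr and scaled by TMM. They were tested with edgeR 4.0.16 (R 4.3.3) in 1 quasi-likelihood fit over the 12 libraries, each depot having 1 coefficient, adjusted by Benjamini-Hochberg over all 19154 genes. Levels are TMM-scaled CPM, and TPM was used to compare genes, for depot means of Nrg4 and as an alternative for levels. SE is the log2 fold change divided by the square root of F. The mean of several depots is that of their fitted log2 levels.

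Gene coordinates are from GENCODE M21 (GRCm38) and promoters from RefSeq (GRCm38.p6), which lists a start for 6 of the 7 members. The Nrg4 window lies inside the GENCODE span of the gene. Members, lists and tests were chosen with earlier results of these data known, so no list stands as independent support. Some genes of the lists are not reported here. Named were all members, their receptors whatever their values, and from each list the members called in the 4 comparisons or, with none called, the one with the highest mean. For each tested member the 3 nearest patterns were taken, leaving out unnamed, predicted and clone-named genes. Scripts were tested on simulated counts in which 200 genes were changed. Alternatives were DESeq2 1.42.0, limma-voom (limma 3.58.1), scaling by RLE or by library size alone, no low-count filter or one of at least 1 CPM in 3 libraries, the replicate number as a block, each library left out and, for levels, the authors' TPM. Ratios of Nrg4 to other markers were added after seeing the data.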

Additional observations from a re-analysis of the deposited data

How the results depend on the processing

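The number of genes called moved with the test and the libraries. For any depot difference it was 98, against 2151 with DESeq2, 23 with limma-voom, 436 without the filter and 171 with the replicate number as a block. For BAT against white it was 19, against 950 with DESeq2, 3 with limma-voom, 11 without TMM, 47 without the filter and 649 with the replicate block. For IWAT against the other white depots it was 27, against 364 with DESeq2, 16 with limma-voom and 19 with the replicate block. For EWAT against RWAT it was 8, against 546 with DESeq2 and 12 with the replicate block. Leaving out 1 library gave 11 (without EWAT replicate 2) to 1054 (without EWAT replicate 1) for any depot difference, 1 (without IWAT replicate 1) to 263 (without RWAT replicate 1) for BAT against white, 6 (without IWAT replicate 1) to 139 (without RWAT replicate 1) for IWAT, and 0 (without EWAT replicate 2) to 804 (without EWAT replicate 1) for EWAT against RWAT. A depot left with 2 libraries borrows its spread from the others, and the cause of these moves was not tested.

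No member was called by the main test, and the calls of Nrg4 and Ntf3 under alternatives are given above; Bdnf, Gdnf, Nrtn and Nrg1 were called under none in the 4 comparisons. Directions reversed in some comparisons where the log2 fold change of a member was smaller than its SE. For IWAT against the other white depots, the log2 fold change of Bdnf was −0.42, against 0.0698 with limma-voom and −0.77 (without IWAT replicate 1) to 0.79 (without EWAT replicate 2) with 1 library left out. That of Gdnf was −0.02, against 0.0062 without the filter, 0.45 without EWAT replicate 2 and 0.18 without RWAT replicate 1, in a range of −0.58 (without IWAT replicate 1) to 0.54 (without IWAT replicate 3). That of Nrtn was 0.70, against −0.29 (without IWAT replicate 2) to 1.43 (without RWAT replicate 3). In EWAT against RWAT, Gdnf was at −0.29, against 0.0431 without EWAT replicate 3 and a range of −1.24 (without EWAT replicate 2) to 0.0903 (without RWAT replicate 1). Nrtn was at 0.50, against −0.12 (without RWAT replicate 2) to 1.94 (without RWAT replicate 3), and Nrg1 at −0.90, against 0.16 with limma-voom and 0.56 with the replicate block. The cause was not tested. With the authors' TPM, the EWAT level over the mean of the 4 depots moved by more than 1 SD for Ntf3 (to 0.346), Nrtn (to 0.826) and Nrg4 (to 0.223). The ratio of Nrg4 to adipocyte markers in BAT over white was 1.86, against 1.60 with Plin1 and 0.726 with lipogenesis genes. Over all values of single genes, 794 of 858 kept their direction and side of the threshold. Without TMM, the median log2 fold change of all genes in BAT against white was −0.46, against −0.07.

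The labels do not say whether libraries with the same replicate number share an animal, so the numbers were not used to pair libraries in the main test. The correlations that follow do not settle whether the libraries were paired. Deviations of same-numbered libraries correlated at −0.347 to 0.677, above 0.1 in 10 of 18 pairs, and 7 of 12 libraries correlated best with their own number, a hint from the data and not the design. With the replicate number as a block, BAT against EWAT passed by edgeR for Nrg4 (adjusted p = 0.0228) and Ntf3 (adjusted p = 0.0396). Any depot difference of Ntrk3 passed as well (adjusted p = 0.0493 by edgeR). The block also called more genes in general, 171 against 98 for any depot difference and 649 against 19 for BAT against white. Its share of all genes in BAT against EWAT is not given here. Depth limits Artn, Bdnf, Gdnf and Nrtn, whose counts were at most 34 per library, and also Ntf3, at most 38.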
